A study of Mus musculus with 3 samples.

Results

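Oxidative phosphorylation genes were taken by symbol. The Nduf, Sdh, Uqcr and Cox series stood for respiratory complexes I to IV, and Atp5 for the ATP synthase, complex V. Symbols with the prefix mt-, for genes carried by mitochondrial DNA, were added. Nduf symbols needed a, b, c, s or v and then a digit. The patterns therefore missed Ndufab1 of complex I, and also Cyc1 of complex III. Pseudogenes, unnamed clones and Ndufa4l2 were left out. The rule gave 98 of the 31744 symbols in the deposited matrices, of which 85 are nuclear and 13 are mitochondrial. They were chosen by name and not by any measured value.

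The libraries came from mouse embryonic fibroblasts carrying the Hb9::GFP reporter, in which GFP is driven by the promoter of the motor neuron gene Hb9, during direct conversion to induced motor neurons. All 3 populations received LNI, a single cassette of Lhx3, Ngn2 and Isl1 (mLhx3-P2A-mNgn2x3HA-T2A-Isl1), and DDRR, which joins HRAS(G12V), an activated Ras, to p53DD, a dominant-negative p53. Cells at 14 days post infection (dpi) were Hb9::GFP+ sorted, either with supplements (BDNF, CNTF, GDNF, FGF and RepSox) or without them. Cells at 4 dpi were grown with supplements and sorted for low CellTrace-FarRed, a dye that is diluted by division. Each group was 1 library. There was therefore no replicate and no test between groups, and the difference between 2 libraries cannot be told apart from the difference between 2 cultures. The 4 dpi library also differed in its sort, its dissociation (trypsin in place of papain with DNase) and its depth, so time cannot be told apart from these.

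As background, complexes I and II pass electrons from NADH and succinate to ubiquinone, complex III passes them to cytochrome c, and complex IV reduces oxygen. Complexes I, III and IV pump protons, and complex V uses the gradient to make ATP. All but complex II combine subunits from both genomes. Neurons depend heavily on this pathway, and dividing fibroblasts in culture draw much of their ATP from glycolysis.

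Nuclear genes of the pathway are known targets of NRF1, a transcription factor whose site is a short GC-rich palindrome. Promoters were read from RefSeq on build GRCm38.p6, and 69 of the 85 nuclear members had one. Its letters, taken as GCGCA, then any base, then GCGC, were searched on both strands from 250 bases before to 50 bases after each start and were present in 17 of those 69 genes (24.6%), against 5.19% of all 27025 genes with a promoter. The full palindrome, with T as the open base, is contained in the former and was present in 5 of 69 (7.25%), against 1.07% of all genes. CCGGAAGT, bound by ETS factors such as GABP, was present in 5 of 69 (7.25%), against 4.31%. ACGTG, the core of the hypoxia response element, was present in 18 of 69 (26.1%), against 21.8%.

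The 250 bases before the start are shown for 3 members with NRF1-type matches, which are in capitals, and for the Cox7a1 and Cox7a2 isoform pair, which had none and whose levels separated between libraries. Ndufb4, an accessory subunit of complex I, has 3 matches (chr16:37654369-37654618, minus strand). Cox6a1, the general form of a small complex IV subunit, has 2 (chr5:115348959-115349208, minus strand). Ndufs5, also a complex I accessory subunit, has 1 (chr4:123718187-123718436, minus strand). Cox7a1, the form known from heart and skeletal muscle, lies at chr7:30183921-30184170 (plus strand), and Cox7a2, its general counterpart, at chr9:79759854-79760103 (minus strand).
Ndufb4: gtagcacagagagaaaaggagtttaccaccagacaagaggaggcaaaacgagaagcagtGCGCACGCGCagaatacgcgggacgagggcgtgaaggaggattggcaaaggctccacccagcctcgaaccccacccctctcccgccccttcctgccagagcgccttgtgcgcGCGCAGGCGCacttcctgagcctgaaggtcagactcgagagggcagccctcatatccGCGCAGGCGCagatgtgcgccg
Cox6a1: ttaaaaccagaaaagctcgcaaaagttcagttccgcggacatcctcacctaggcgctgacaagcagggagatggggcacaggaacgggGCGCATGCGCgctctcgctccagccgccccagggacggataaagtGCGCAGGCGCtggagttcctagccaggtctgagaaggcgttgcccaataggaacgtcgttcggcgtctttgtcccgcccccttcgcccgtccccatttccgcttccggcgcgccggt
Ndufs5: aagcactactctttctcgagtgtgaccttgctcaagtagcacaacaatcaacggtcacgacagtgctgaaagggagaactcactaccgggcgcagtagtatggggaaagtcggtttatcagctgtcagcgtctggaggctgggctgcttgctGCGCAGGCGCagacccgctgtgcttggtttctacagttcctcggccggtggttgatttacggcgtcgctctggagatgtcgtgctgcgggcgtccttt
Cox7a1: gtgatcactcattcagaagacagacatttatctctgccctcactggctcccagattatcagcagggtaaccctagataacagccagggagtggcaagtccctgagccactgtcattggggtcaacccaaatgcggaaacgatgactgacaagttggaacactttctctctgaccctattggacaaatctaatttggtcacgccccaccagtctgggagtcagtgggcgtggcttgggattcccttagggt
Cox7a2: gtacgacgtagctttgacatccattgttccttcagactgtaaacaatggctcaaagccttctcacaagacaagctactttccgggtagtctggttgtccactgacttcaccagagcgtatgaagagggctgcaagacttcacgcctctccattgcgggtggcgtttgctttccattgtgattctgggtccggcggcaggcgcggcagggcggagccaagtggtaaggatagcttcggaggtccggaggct
A match describes the letters and is not evidence of binding. For the 14 dpi library with supplements over the 4 dpi library, the median log2 ratio was 0.54 in the 17 genes with a match and 0.46 in 49 other members with a promoter. Without supplements over 4 dpi it was 0.27 in the 17 and 0.34 in 50 others.

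After removal of barcodes with fewer than 500 genes or more than 20% mitochondrially encoded unique molecular identifiers (UMIs, each standing for 1 captured RNA molecule), the libraries held 36782509 UMIs with supplements at 14 dpi, 45855979 without supplements at 14 dpi and 12202809 at 4 dpi. Median UMIs per cell were 14380.5, 10664 and 2312.5 in that order. Between 3 and 5 cell barcodes were shared by any 2 libraries. Cells were clustered without the pathway genes, and clusters were named from marker genes. Neuron-like clusters held 61.6% of the library with supplements, 42.1% of that without and 0.134% of that at 4 dpi. Fibroblast-like cells made up 3.02%, 25.9% and 27.5%, and cycling cells 5.92%, 7.99% and 30.7%. The remaining 29.4%, 24.0% and 41.7% lay in clusters that stayed unnamed. In sums over a library, fewer cells of a type and less RNA per cell cannot be told apart. All intervals below are exact, at 95%, and cover counting error only.

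The pathway took a larger part of the RNA at 14 dpi than at 4 dpi, and at 14 dpi it took more with supplements than without. The nuclear members together made up 3.67% of UMIs with supplements, 3.29% without and 2.63% at 4 dpi. The same order held for the nuclear subunits of each complex. Complex I, the NADH dehydrogenase, had 1.25%, 1.06% and 0.844%, with Ndufa4 counted in it by name. Complex II, succinate dehydrogenase, had 0.0501%, 0.0439% and 0.0412%, the smallest share of any complex. Complex III, the cytochrome bc1 complex, had 0.349%, 0.324% and 0.238%. Complex IV, cytochrome c oxidase, had 0.944%, 0.897% and 0.669%. Complex V had 1.07%, 0.966% and 0.837%. Over the same cells the cytosolic ribosomal protein genes took 13.05%, 18.7% and 19.2%, so they were ordered the other way. Outside those genes the nuclear members took 4.22%, 4.05% and 3.26% of UMIs, which is the same order.

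**Figure D1:**
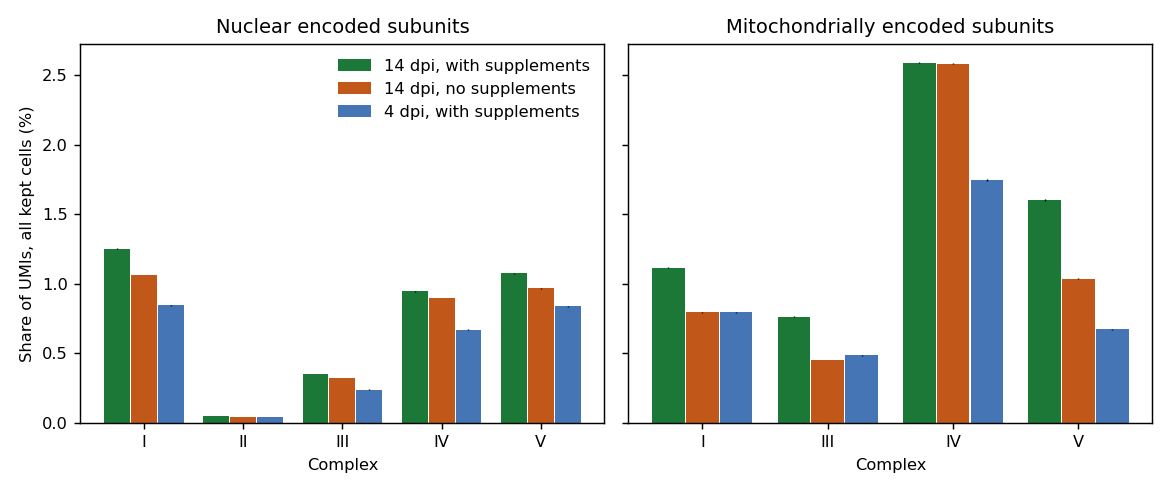
Percent of UMIs over all kept cells (vertical axis) taken by the nuclear (left) and mitochondrially encoded (right) subunits of each complex (horizontal axis). Bars are the 3 libraries, with exact counting intervals; the nuclear complex I share is 1.25% with supplements and 0.844% at 4 dpi, and the mitochondrially encoded complex V share is 1.60% and 0.673%.

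Levels are given as CPM, that is UMIs per 1000000 UMIs of the kept cells, and differences as log2 ratios of CPM. Of the 85 nuclear members, 80 reached 10 CPM in at least 1 library. The other 5, which are Cox6a2, Cox7b2, Cox8b, Cox8c and Ndufb11b, stayed below it in all 3. Among members at 10 CPM or more, the median level was 444 CPM with supplements, 361 CPM without and 290 CPM at 4 dpi. The highest nuclear member was Cox6c with supplements (1413 CPM), Cox7c without (1542 CPM) and Cox4i1 at 4 dpi (1025 CPM), all subunits of complex IV. The assay reads the 3' end of each molecule, so CPM is not divided by transcript length. Many of these genes have processed pseudogenes, and reads from near-identical copies may have been divided among them in the authors' counting.

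Between the 14 dpi library with supplements and the 4 dpi library, 78 nuclear members reached 10 CPM in either. A call here means a difference of 1.5-fold or more. Of the 78, 29 were higher at 14 dpi, where 26.9% of all 9415 symbols tested were, and none was lower, where 18.1% of all symbols were. The log2 ratio was above 0 for 67 of 78 members, against 56.1% of all symbols. Its median was 0.48 over the members and 0.11 over all symbols. The counting interval excluded 0 for 68 of the 78 members. These intervals narrow with depth, and the share over all symbols was not computed. Between the 14 dpi libraries the interval excluded 0 for 74 of 80 members, though few reached 1.5-fold there. With library sizes scaled by TMM, which moved the median of all symbols by -0.14, 17 members were 1.5-fold higher and the members' median was 0.35.

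In the nuclear members, the 14 dpi library without supplements stood closer to the 4 dpi library. Over all symbols it did not: 46.7% differed by 1.5-fold in either direction, against 45.0% with supplements. Of 80 members tested, 16 were 1.5-fold higher at 14 dpi, against 27.4% of all 9474 symbols, and none was lower, against 19.3%. The median log2 ratio was 0.30 over the members and 0.09 over all symbols. Both comparisons share the 4 dpi library, so their values are set side by side and are not independent.

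Within complexes I, III and V, the core subunits, or the alpha, beta and gamma subunits of F1, had lower median ratios than the rest in both comparisons. Complex I has 7 nuclear core subunits, which hold the flavin and iron-sulfur centres, and their median log2 ratio over 4 dpi was 0.24 with supplements and -0.18 without. Only Ndufs7 of the 7 was 1.5-fold higher with supplements, and none was without. The 30 accessory subunits tested, which surround that core, had medians of 0.59 and 0.40, with 15 and 7 members 1.5-fold higher. Of all symbols, 26.9% and 27.4% were 1.5-fold higher in these comparisons. The share of accessory subunits called was therefore above that of all symbols with supplements and below it without. In complex III the core proteins Uqcrc1 and Uqcrc2 had medians of -0.04 and -0.22, and the 6 other subunits, among them the iron-sulfur protein Uqcrfs1, 0.59 and 0.51. In complex V the alpha, beta and gamma subunits of the F1 head (Atp5a1, Atp5b and Atp5c1) had medians of -0.02 and -0.15, and the 14 others, which include the c-ring, the stalks and the small F1 subunits, 0.52 and 0.29. These role groups were drawn after values had been seen and are a description. They also differed in transcript length, given below, and role cannot be told apart from length. A change of scaling shifts all groups of a comparison alike and leaves the distance between them unchanged.

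**Figure D2:**
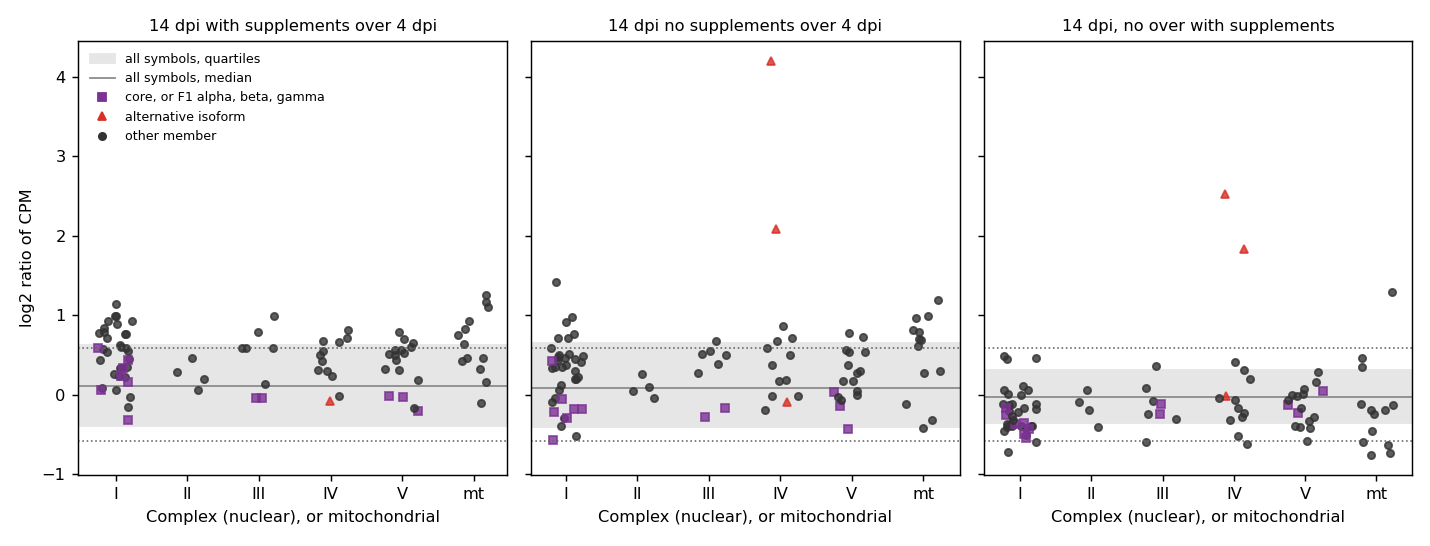
Log2 ratio of CPM (vertical axis) of each member tested, by complex for nuclear members and together for mitochondrially encoded ones (horizontal axis), in the 3 comparisons of libraries. Dotted lines mark 1.5-fold, and the grey line and band the median and quartiles of all symbols. Purple squares are the core and F1 alpha, beta and gamma subunits, and red triangles the alternative isoforms. In the right panel Cox7a1 (2.53) and Cox4i2 (1.83) stand above the other nuclear members. Both reached 10 CPM only in the library without supplements.

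Among the accessory subunits of complex I, levels differed in their order across libraries. Ndufb3, an accessory subunit of the membrane arm, measured 300 CPM with supplements, 258 CPM without and 136 CPM at 4 dpi. Its log2 ratio of 1.14 [1.07, 1.22] with supplements over 4 dpi was the highest of complex I. Ndufv3, a small accessory subunit next to the flavin-bearing core, was highest without supplements, at 267, 376 and 140 CPM. Its log2 ratio without supplements over 4 dpi was 1.43, the highest of the complex. Ndufs5 measured 605, 503 and 305 CPM and Ndufb4 measured 346, 306 and 204 CPM, so both stood above 4 dpi in both 14 dpi libraries.

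No member of complex II, the one complex built from nuclear genes alone, reached 1.5-fold in any comparison of whole libraries. Sdhb, its iron-sulfur subunit, measured 199 CPM with supplements, 150 CPM without and 144 CPM at 4 dpi. Sdhc, a membrane anchor, measured 107, 99.9 and 102 CPM, and its counting intervals over 4 dpi included 0 in both comparisons. Sdhd, the other anchor, measured 99.2, 104 and 86.5 CPM. Sdha, the flavin subunit, measured 96.5, 84.9 and 79.2 CPM.

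In complex III, Uqcrq, a small subunit, measured 841 CPM with supplements, 556 CPM without and 423 CPM at 4 dpi. It had the highest ratio of the complex with supplements over 4 dpi (0.99 [0.95, 1.04]) and the lowest without over with supplements (-0.60 [-0.62, -0.57]). Uqcrc1, a core protein, measured 105, 89.0 and 108 CPM and did not differ from 4 dpi beyond counting error with supplements. Uqcrh, the hinge protein that helps cytochrome c dock, measured 621, 802 and 565 CPM, so it was highest without supplements. Uqcr10 measured 434, 461 and 288 CPM, and its log2 ratio without supplements over 4 dpi, 0.68 [0.63, 0.73], was the highest of the complex.

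In complex IV, Cox6c measured 1413 CPM with supplements, 1205 CPM without and 802 CPM at 4 dpi. Cox5b, a zinc-binding subunit on the matrix side, measured 788, 516 and 588 CPM, so the library without supplements was the lowest. Cox7c and Cox8a, small membrane-spanning subunits, were highest without supplements, at 1244, 1542 and 845 CPM and at 1042, 1383 and 839 CPM. In complex V, Atp5b, the catalytic beta subunit, was highest at 4 dpi, at 654, 559 and 751 CPM. Atp5g3, 1 of 3 genes for the same c-ring protein, measured 609, 458 and 352 CPM. The other c-ring genes did not follow it: Atp5g1 measured 662, 525 and 533 CPM, and Atp5g2 579, 649 and 650 CPM. Atp5e, the epsilon subunit of F1, measured 656, 798 and 465 CPM, and Atp5pb, of the peripheral stalk, 785, 528 and 551 CPM.

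The members' transcripts are short, with a median length of 645 bases (GENCODE M21, the median over a gene's protein-coding transcripts, fragments included) against 2162.5 for the other symbols in the comparison with supplements. With supplements over 4 dpi, the members' median was above that of other symbols in each length class that held members. Up to 500 bases, 12 members had a median log2 ratio of 0.55 and 120 other symbols one of 0.04. Between 500 and 750 bases, 33 members had 0.57 and 694 other symbols 0.10. Between 1000 and 1500 bases, 12 members had 0.18 and 1267 other symbols 0.07. Leaving out ribosomal protein genes, the other symbols had 0.15, 0.13 and 0.08 in these 3 classes. Without supplements over 4 dpi, members and all other symbols had 0.56 and 0.15, 0.38 and 0.07, and -0.05 and -0.04 in these 3 classes. Leaving out ribosomal protein genes, the others had 0.13, 0.06 and -0.04. The complex I core subunits ran from 651 (Ndufs1) to 1436 bases (Ndufv1). Uqcrc1 and Uqcrc2 had 533 and 1179, and Atp5a1, Atp5b and Atp5c1 had 2572.5, 1916 and 1000. Some other members were long too, such as Atp5g1 (2675.5). Whether the lower ratios of core subunits go with role or with length was not tested.

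Between the 14 dpi libraries, few nuclear members differed by 1.5-fold, and most were slightly lower without supplements. Of 80 tested, 2 were higher (Cox7a1 and Cox4i2), against 13.4% of all 9374 symbols, and 4 were lower (Ndufa4, Cox5b, Uqcrq and Ndufb9), against 13.5%. Cox7a1 and Cox4i2 reached 10 CPM only in the library without supplements, so the filter admitted them through the library where they were high. With a filter at 50 CPM 0 were higher and 4 lower, and with no filter beyond 1 UMI 5 were higher and 4 lower. The log2 ratio was above 0 for 21 of 80 members, against 47.4% of all symbols, and its median was -0.18, against -0.03. Scaled by TMM, or with CPM computed outside mitochondrially encoded and ribosomal protein genes, 2 were still higher and 1 was lower, and the members' median was -0.11 and -0.10. All 7 core subunits of complex I were below 0, with a median of -0.36.

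Ndufa4, named for complex I and counted with its accessory subunits here, has since been placed in complex IV. It was the lowest member and measured 1321 CPM with supplements, 807 CPM without and 771 CPM at 4 dpi, a log2 ratio of -0.71 [-0.73, -0.69] between the 14 dpi libraries. Ndufb9, an accessory subunit, measured 723, 479 and 418 CPM (-0.59 [-0.62, -0.57]). Cox5b lay at -0.61 [-0.64, -0.59]. Cox5b, Uqcrq and Ndufb9 lay just past 1.5-fold, and Atp5pb, at -0.57, lay just inside it.

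The neuron-like class was made up mainly of clusters 2 and 3 with supplements and of clusters 13 and 15 without, so a value for the class sets those clusters against each other. In these cells 4 of 80 members were 1.5-fold higher without supplements (Cox7a1, Cox4i2, Cox6a2 and Ndufv3), against 15.5% of all 9283 symbols. The 2 that were lower were Cox5b (-0.62) and Ndufa4 (-0.59), against 13.3% of all symbols. Cox7a1, Cox4i2 and Cox6a2 reached 10 CPM only without supplements, and with a filter at 50 CPM 1 member was higher and 2 were lower. The members' median was -0.17, near the -0.18 of whole libraries, and that of all symbols was 0.03. Outside mitochondrially encoded and ribosomal protein genes, none was 1.5-fold lower. Ndufv3 measured 291 CPM with supplements and 473 CPM without in these cells.

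Among the 80 members tested between the 14 dpi libraries, the largest ratios belonged to Cox7a1 and Cox4i2, alternative isoforms of complex IV subunits. Both passed the 10 CPM filter only through the library where they were high, and with a filter at 50 CPM 0 members were higher. Of 7 alternative isoforms 3 were tested, and the other, Cox6b2, was level. Cox4i2 replaces Cox4i1 in lung and in cells short of oxygen. It had 280 UMIs (7.61 CPM) with supplements, 1241 UMIs (27.1 CPM) without and 18 UMIs (1.48 CPM) at 4 dpi. The log2 ratio between the 14 dpi libraries was 1.83 [1.64, 2.02]. Cox4i1 itself measured 1268, 1016 and 1025 CPM. Cox4i2 was therefore 0.597% of the pair's UMIs with supplements, 2.59% without and 0.144% at 4 dpi.

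Cox7a1 had 73 UMIs (1.98 CPM) with supplements, 526 UMIs (11.5 CPM) without and 33 UMIs (2.70 CPM) at 4 dpi. The log2 ratio between the 14 dpi libraries was 2.53 [2.18, 2.90], the highest of the 80 members that reached 10 CPM. Cox7a2 differed little there, at 813 CPM with supplements and 789 CPM without. Cox8b, the muscle form of subunit VIII, had 5 UMIs with supplements, 65 without and 0 at 4 dpi, where a count of 0 allows up to 0.246 CPM (3 UMIs). It stayed under 10 CPM throughout. Cox6a2, the muscle form of Cox6a1, measured 5.52, 7.22 and 1.72 CPM. Cox6b2, known from testis, was level at 10.8, 10.8 and 11.4 CPM. Other muscle genes were near 0: the summed level of 6 skeletal and cardiac muscle markers was 1.55 CPM with supplements, 0.981 CPM without and 1.15 CPM at 4 dpi, and Ckm, the muscle creatine kinase, had no UMI in the latter 2.

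Within the library without supplements, Cox4i2 was concentrated in 2 clusters. It measured 72.7 CPM in cluster 7, an unnamed cluster of 148 cells, and 52.5 CPM in cluster 15, which is neuron-like. It took 6.79% and 4.51% of the pair's UMIs there, against 0.269% to 1.56% in the other 14 dpi clusters. Cox7a1 was highest in the same clusters, at 32.2 CPM and 21.2 CPM. Ndufa4l2, a hypoxia-linked relative of Ndufa4 that the naming rule leaves out, measured 151 CPM in cluster 7 and 93.8 CPM in cluster 15, and 45.6 CPM over the library. It was not removed from the genes offered to the clustering, and it was among the 10 top genes of cluster 15. Its level there may therefore not be independent of how that cluster was drawn. In neuron-like cells as a whole, Cox4i2 measured 6.60 CPM with supplements and 40.7 CPM without, and Cox7a1 2.40 and 17.7 CPM. That class sets different clusters against each other. Clusters 1, 4 and 6 held at least 50 cells of both 14 dpi libraries. There Cox4i2 was nearly level in cluster 1 (10.6 and 10.7 CPM) and cluster 4 (12.9 and 14.2 CPM). In cluster 6 it measured 4.51 CPM (3 UMIs) and 12.6 CPM. Cox7a1 measured 0.364 and 6.90 CPM in cluster 1 (1 and 11 UMIs) and 1.52 and 6.45 CPM in cluster 4 (4 and 31 UMIs). In cluster 6 it had 0 UMIs with supplements and 39 UMIs (3.75 CPM) without. There a count of 0 allows up to 4.51 CPM (3 UMIs), so no difference is shown.

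**Figure D3:**
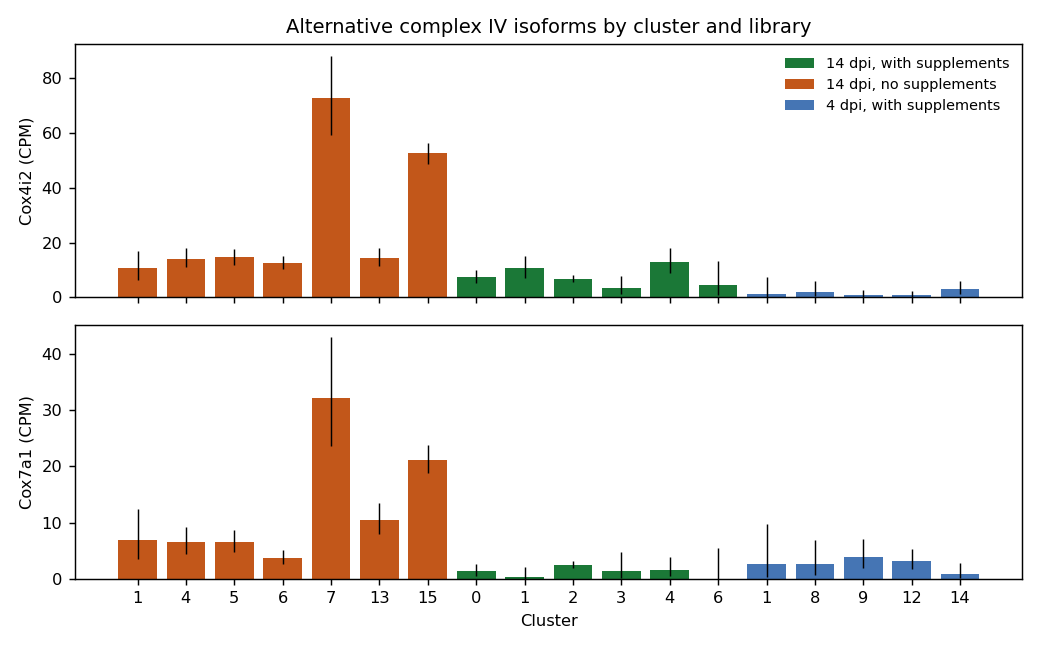
CPM of Cox4i2 (top) and Cox7a1 (bottom) in each cluster with at least 50 cells of a library (horizontal axis), coloured by library, with exact counting intervals. Both are highest in clusters 7 (72.7 and 32.2 CPM) and 15 (52.5 and 21.2 CPM) of the library without supplements.

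Mitochondrially encoded genes took 6.07% of UMIs with supplements, 4.86% without and 3.70% at 4 dpi. The barcode filter acts on these genes directly, and with all deposited barcodes the shares were 6.46%, 5.08% and 3.77%. Their make-up differed more than their total. The complex IV genes took 2.59%, 2.58% and 1.75%, nearly the same in both 14 dpi libraries. Complex I genes took 1.11%, 0.795% and 0.795%. Complex III (mt-Cytb) took 0.762%, 0.451% and 0.487%, and complex V 1.60%, 1.03% and 0.673%.

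Between the 14 dpi libraries, 1 of the 13 genes was 1.5-fold higher without supplements, against 13.4% of all symbols, and 4 were lower, against 13.5%. The higher one was mt-Nd6, the only protein gene on the opposite strand of mitochondrial DNA and a complex I subunit. It measured 35.1 CPM with supplements, 85.8 CPM without and 37.6 CPM at 4 dpi, a log2 ratio of 1.29 [1.20, 1.38]. mt-Co1, the catalytic subunit of complex IV, measured 5232, 7251 and 4189 CPM (0.47), and mt-Nd5, of complex I, 364, 463 and 264 CPM (0.35). The mt-Nd5 and mt-Nd6 annotations overlap by 14 bases on opposite strands in GENCODE M21, and no source used here says whether counting used strand, so reads in that overlap are uncertain. The 10 other genes were lower without supplements.

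Lowest was mt-Cytb, cytochrome b, at 7618 CPM with supplements, 4511 CPM without and 4866 CPM at 4 dpi (-0.76 [-0.76, -0.75] between the 14 dpi libraries). mt-Nd4 measured 3155, 1895 and 2352 CPM (-0.74), and mt-Nd1 3253, 2167 and 2896 CPM (-0.59). Both are complex I subunits. mt-Atp6, the proton-channel subunit of complex V, measured 15973, 10307 and 6708 CPM (-0.63). The rest lay between -0.46 and -0.11. These were mt-Nd2 (3065, 2230 and 1813 CPM), mt-Nd3 (1102, 964 and 491 CPM), mt-Nd4l (174, 147 and 91.4 CPM), mt-Co2 (10613, 9718 and 5979 CPM), mt-Co3 (10035, 8839 and 7284 CPM) and mt-Atp8 (39.8, 36.8 and 18.4 CPM). mt-Atp8 overlaps mt-Atp6 by 43 bases and mt-Nd4l overlaps mt-Nd4 by 7, so the division of reads within each pair is uncertain.

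Against 4 dpi, 7 of the 13 genes were 1.5-fold higher with supplements (26.9% of all symbols) and 8 were without (27.4%). None was lower in either, where 18.1% and 19.3% of all symbols were. With supplements the highest were mt-Atp6 (1.25 [1.24, 1.26]), mt-Nd3 (1.16) and mt-Atp8 (1.11 [0.91, 1.32]), and the lowest was mt-Nd6 (-0.10 [-0.25, 0.06]). Without supplements the highest was mt-Nd6 (1.19 [1.05, 1.33]), and mt-Cytb (-0.11), mt-Nd4 (-0.31) and mt-Nd1 (-0.42) were below 0. As a share of all mitochondrially encoded UMIs, mt-Co1 took 8.63% with supplements, 14.9% without and 11.3% at 4 dpi, and mt-Atp6 26.3%, 21.2% and 18.1%.

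The order of genes between the 14 dpi libraries was close to this in single cell states. In neuron-like cells mt-Nd6 was at 1.24, mt-Co1 at 0.53 and mt-Nd5 at 0.45, and mt-Nd4 was at -0.73, mt-Cytb at -0.71 and mt-Nd1 at -0.70. In cycling cells (clusters 4 and 12) mt-Nd6 was at 1.57 and mt-Co1 at 0.46, and mt-Cytb was at -0.88. In cluster 1, unnamed and present in all 3 libraries, mt-Nd6 was at 1.11, mt-Co1 at 0.52 and mt-Nd1 at -0.77, and mt-Nd5 was at -0.04.

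**Figure D4:**
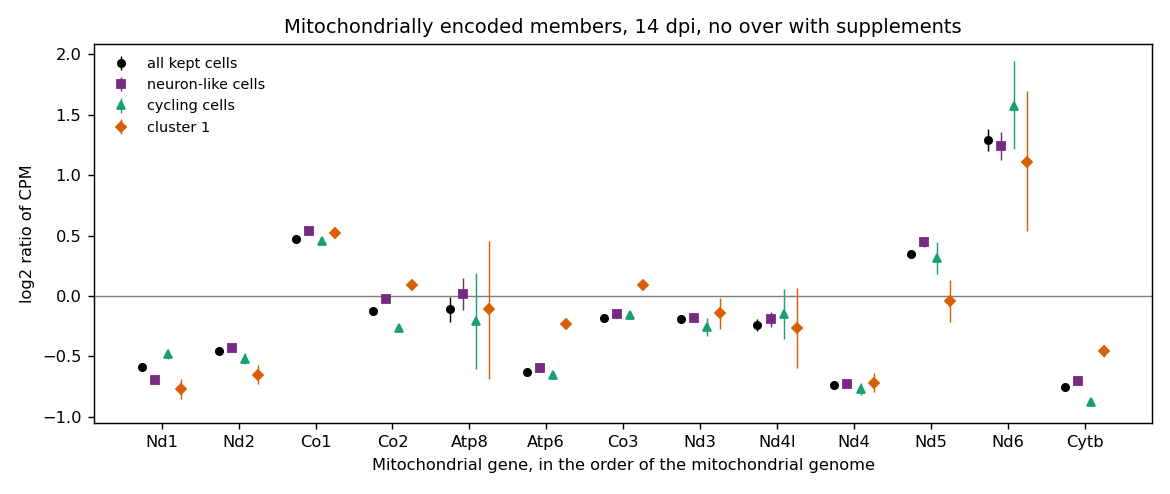
Log2 ratio of CPM without over with supplements at 14 dpi (vertical axis) for the 13 mitochondrially encoded genes in genome order (horizontal axis), in all kept cells and in 3 populations, with exact counting intervals. Over all kept cells mt-Nd6 (1.29), mt-Co1 (0.47) and mt-Nd5 (0.35) lie above 0 and the other 10 below it.

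By cell state, neuron-like cells had the largest shares among named classes, for both genomes. With supplements their nuclear members took 3.87% of UMIs and their mitochondrially encoded genes 6.74%, and without supplements 3.57% and 5.55%. Fibroblast-like cells, mainly from cluster 6 at 14 dpi and cluster 14 at 4 dpi, had nuclear shares of 2.74%, 2.72% and 2.51% in the order used above. Their mitochondrially encoded shares were 4.57%, 4.01% and 3.78%. Cycling cells had nuclear shares of 3.25%, 2.91% and 2.58% and mitochondrially encoded shares of 4.69%, 3.66% and 3.47%.

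Cells varied widely within a class. In neuron-like cells the median mitochondrially encoded share was 6.51% with supplements (quartiles 4.84% and 8.72%) and 5.29% without (3.90% and 6.83%). Unnamed clusters spanned the range: cluster 5, almost all from the library without supplements, had 3.81% nuclear and 5.71% mitochondrially encoded UMIs, and cluster 7, also from that library, had 2.76% and 3.16%. Cluster 1 had nuclear shares of 2.93% with supplements, 3.01% without and 2.12% at 4 dpi. Its mitochondrially encoded shares were 3.53%, 3.33% and 2.07%.

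**Figure D5:**
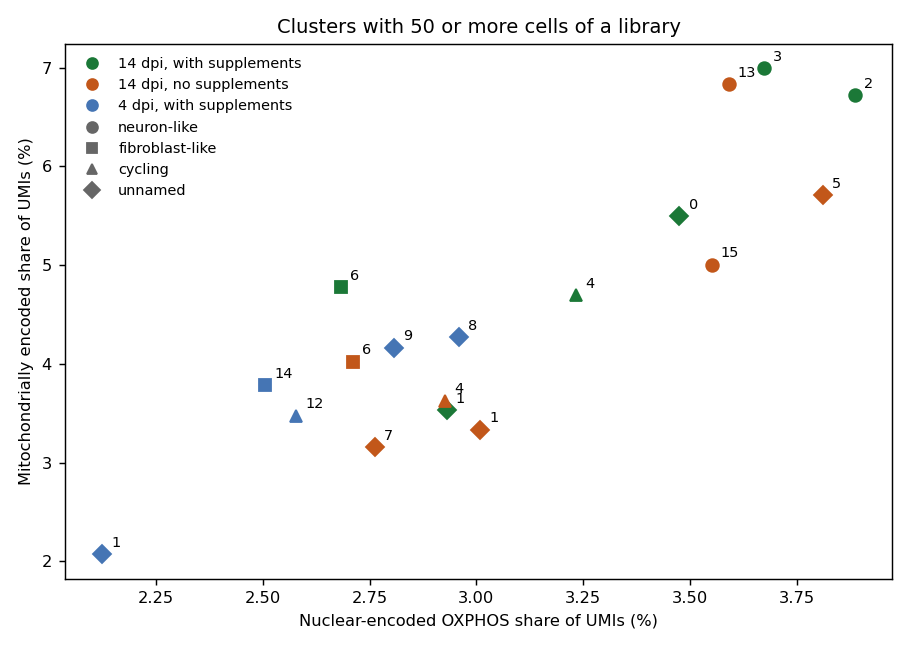
Nuclear share of UMIs (horizontal axis, percent) against mitochondrially encoded share (vertical axis, percent) for each cluster with at least 50 cells of a library, coloured by library and shaped by class. Neuron-like clusters 2 and 3 sit at 3.89% and 6.72% and at 3.67% and 6.99%, and cluster 1 at 4 dpi is lowest at 2.12% and 2.07%.

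The shares also rose along the neuron marker signal within each 14 dpi library, with cells binned by their UMIs from 18 neuron markers after thinning to 1000 UMIs per cell. With supplements the nuclear share went from 3.01% in cells with none to 3.79% in cells with 11 or more, and the mitochondrially encoded share from 4.66% to 6.68%. Without supplements they went from 2.61% to 3.62% and from 3.62% to 6.03%. At 4 dpi the nuclear share went from 2.53% to 2.81% at 6 to 10 marker UMIs and was 2.54% in the 60 cells with 11 or more. Cells under 2000 UMIs were left out, which removed 83 cells with supplements, 59 without and 1759 at 4 dpi. Ribosomal protein genes were not set aside in these bins.

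Ratios within a class varied with the class. In fibroblast-like cells without supplements over 4 dpi, 7 of 79 members were 1.5-fold higher, against 23.2% of all symbols, and 5 were lower, against 18.1%. The median was -0.02, while the summed nuclear UMIs gave 0.12. Of the cycling class, cluster 4 held 127 of 137 and 290 of 297 cells in the 14 dpi libraries, whereas cluster 12 held 1369 of 1378 at 4 dpi, so its ratios over 4 dpi set different clusters against each other. In cycling cells 15 of 79 were higher with supplements over 4 dpi, against 17.7% of all symbols, none was lower, against 12.5%, and the median was 0.25. Without supplements over 4 dpi, 10 cycling members were higher, against 21.9%, and 4 lower, against 17.9%, with a median of 0.07. Between the 14 dpi libraries, cycling cells had 1 member higher, against 16.0% of all symbols, and 4 lower, against 17.4%, with a median of -0.18.

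Cluster 1 held cells of all 3 libraries: 182 with supplements, 123 without and 221 at 4 dpi. With supplements over 4 dpi, 30 of 79 members were higher there, against 18.8% of all symbols, and 2 lower, against 23.6%, with a median of 0.42. Without supplements over 4 dpi, 30 of 78 were higher, against 19.1%, and none lower, against 29.5%, with a median of 0.45. Between the 14 dpi libraries, 5 of 79 were higher without supplements, against 13.1%, and 1 lower, against 18.5%, with a median of -0.01.

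Core subunits of complex I also stood below accessory ones in these populations. The populations are parts of the same libraries in which the role groups were drawn, so this is not separate support. With supplements over 4 dpi, the medians were 0.24 and 0.43 in cycling cells and -0.24 and 0.35 in cluster 1. Without supplements they were -0.26 and 0.32 in cycling cells, -0.12 and 0.51 in cluster 1 and -0.43 and -0.02 in fibroblast-like cells.

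Genes that build or feed the chain were read from lists beside it, and the counts below compare the 14 dpi libraries without over with supplements. The assembly factors of complex I were below 0 in 14 of 14, with a median log2 ratio of -0.24, and those of complexes II to V in 18 of 23, with a median of -0.43. Mitochondrial ribosome genes had a median of -0.40, with 23 of 77 at least 1.5-fold lower and none higher. Import genes had a median of -0.42, with 2 of 15 lower, a share close to that of all symbols. Among cytochrome c and other chain components, 4 of 10 were lower and 1 higher, and the lowest was Cycs, cytochrome c itself, at 595 CPM with supplements, 300 CPM without and 443 CPM at 4 dpi (-0.99). All these shares of lower calls are read against the 13.5% of all symbols given above. The counts below 0 are read against the 47.4% of all symbols that were above 0.

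Glycolysis went the other way, and its higher calls and those of the lists after it are read against the 13.4% of all symbols called higher. All 20 genes of that list were above 0, against 47.4% of all symbols. Of the 20, 19 were 1.5-fold higher, and the median log2 ratio was 1.52. Ldha, which turns pyruvate to lactate, measured 499 CPM with supplements, 1409 CPM without and 546 CPM at 4 dpi. At the branch into mitochondria, Pdk1, a kinase that switches off pyruvate dehydrogenase, measured 10.1, 38.7 and 4.18 CPM. Mpc1, of the pyruvate carrier, measured 1186, 424 and 111 CPM, so it was 3.42 higher on the log2 scale with supplements than at 4 dpi. The tricarboxylic acid cycle had a median of -0.16, with 2 of 15 higher, a share close to that of all symbols, and none lower. Regulators of mitochondrial biogenesis had a median of 0.28, with 1 of 8 higher, also close to the share of all symbols. Genes for copying and transcribing mitochondrial DNA had a median of -0.23, with 3 of 12 lower, and Tfam, which packages that DNA, measured 48.9, 40.2 and 45.1 CPM.

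With supplements over 4 dpi, where the median of all symbols was 0.11, the lists lay on both sides of it. The median was 0.35 for complex I assembly factors, 0.28 for those of complexes II to V, 0.19 for import and 0.12 for the mitochondrial ribosome, against 0.48 for the nuclear subunits. It was 0.69 for pyruvate dehydrogenase and its kinases and 0.69 for hypoxia-linked mitochondrial genes. It was -0.10 for the tricarboxylic acid cycle and -0.32 for glycolysis. Without supplements over 4 dpi it was 1.46 for glycolysis, 0.17 for complex I assembly, -0.25 for the mitochondrial ribosome and -0.27 for the tricarboxylic acid cycle.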

How the data were processed

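The authors deposited UMI counts per gene and cell barcode for 3 single-cell libraries (10x Genomics 3' chemistry, version 3.1 per the labels), made with Cell Ranger 6.1.1 per the file headers on GRCm39 per the submitters' processing notes. How cells were called, and whether intronic reads or strand were used, is not stated in any source used here. Counts of features sharing a symbol were summed. Barcodes under 500 genes or over 20% mitochondrially encoded UMIs were dropped. Cells were clustered without the pathway genes (2000 variable genes, 30 principal components, 15 neighbours, Leiden resolution 1, 16 clusters) with scanpy 1.11.5. Class thresholds were set after seeing the data. A doublet caller marked 3, 2 and 2 cells, so it did not work and none were removed. UMIs were summed per library and population, scaled to CPM and compared as log2 ratios at 10 CPM or more in either library, with a count of 0 set to 3. Scripts were checked on simulated data. With 1 library per group no test was run. Named genes were all 13 mitochondrial genes, the highest and lowest of each complex per comparison, isoform pairs, and the highest and lowest of each list. Others named in the text were chosen after their values were seen, and 1 item is not reported here. Members and lists were chosen with earlier results of these data known. Alternatives were other filters, scalings, weights, clusterings and folds. Python 3.11.15, pandas 2.3.3, scipy 1.17.1 and edgeR 4.0.16 (TMM only) were used.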

Additional observations from a re-analysis of the deposited data

How the results depend on the processing

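No paired analysis was possible because each group holds 1 library and no result comes from a test. The count of nuclear members past 1.5-fold without over with supplements at 14 dpi (6) became 3 outside mitochondrially encoded and ribosomal protein genes, 3 with TMM and 2 at 2-fold. With supplements over 4 dpi (29) it became 17 with TMM and 1 at 2-fold. Without supplements over 4 dpi (16) it became 3 at 2-fold. In neuron-like cells (6) it became 3 with a 50 CPM filter and 2 at 2-fold. The mitochondrially encoded shares with supplements, without and at 4 dpi were 6.46%, 5.08% and 3.77% with all barcodes. They were 5.44%, 4.70% and 3.68% at a 10% limit, 6.12%, 4.88% and 3.71% without the top 5% of doublet scores, 6.21%, 4.88% and 3.83% with cells weighted equally, and 6.98%, 5.98% and 4.58% outside ribosomal protein genes. The nuclear share of neuron-like minus fibroblast-like cells without supplements was 0.853 percentage points, and 1.02 when pathway genes entered the clustering, an alternative chosen after seeing the data. Ribosomal protein genes were counted in both. Of 2791 ratios of single members under the alternatives other than filters on level and folds, 752 left the counting interval and none reversed a call. A reversal meant that a ratio past 1.5-fold changed sign. Calls that were only lost, as in the counts above, are not included in it. Not run were all barcodes for neuron-like cells, since removed barcodes have no cluster, and Leiden resolution 0.5, at which no 14 dpi cluster met the neuron-like rule. No library has a replicate, and the 4 dpi library has the fewest UMIs, so its low members carry the widest counting intervals.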

Other observations

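2 small clusters lay outside the range of the others. Cluster 10 (27 cells) had 4.18% nuclear and 2.83% mitochondrially encoded UMIs, and cluster 11 (46 cells, median 1073 UMIs) had 0.798% and 6.33%. Barcodes removed by the filters held 0.888%, 0.638% and 0.712% of UMIs with supplements, without and at 4 dpi, with median mitochondrially encoded shares of 42.8%, 37.5% and 6.83%. With the cells of a library divided into 4 groups by depth, the nuclear share ranged from 3.40% to 3.76% with supplements and from 3.23% to 3.40% without. At 4 dpi it went from 2.74% in the shallowest group to 2.56% in the deepest, and the mitochondrially encoded share from 4.19% to 3.50%.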
